A study of Arabidopsis thaliana with 6 samples.

Results

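In direct RNA sequencing of *Arabidopsis thaliana* seedlings, 199 genes had at most 50% of the wild type count in both *fio1-1* and *fio1-5*. They were chosen by these very values. Isoform counts were summed per gene, genes with at least 20 counts over the 3 libraries were kept, and a gene was taken where its scaled log2 ratio to Col-0 was at most -1 in each mutant. The deposited values cover 33314 genes and 16426 were kept, and the 199 genes are 1.21% of these. The lower counts in *fio1-1* and *fio1-5* are therefore the selection itself and are given as a description, without a test.

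The libraries were made from total RNA of 14 day old seedlings grown on plates in long days, with 1 library for each of *fio1-1*, *fio1-5* and Col-0. The *fio1-1* allele is a chemically induced splice site mutation, *fio1-5* is a CRISPR-induced deletion close to a splice site, and Col-0 is the wild type background of the mutants. There are no biological replicates, so the differences have no replicate check and every interval given here covers counting error only. Both mutants are set against the same Col-0 library, and a Col-0 count that is high by chance lowers both ratios at once. The column of *fio1-5* carries the working name *fio1-2* in the labels, and it is not the T-DNA line of that name. The columns name no platform and were read as the Nanopore libraries. Library totals were 4351543, 4682799 and 4602836 counts in *fio1-1*, *fio1-5* and Col-0, with 21457, 21483 and 21223 genes counted at least once. *FIO1* itself had 17 counts in *fio1-1* and 30 in *fio1-5*, against 25 in Col-0. Because the alleles change the sequence of the transcript, this count does not check the labels.

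FIO1 is a methyltransferase related to human METTL16 that places N6-methyladenosine (m6A) on RNA. One known substrate is the U6 small nuclear RNA, which pairs with the 5′ splice site of introns. Plants that lack FIO1 function flower early, and the MADS-domain protein FLC is a central repressor of flowering. A lower transcript count in a bulk seedling sample can mean fewer cells of a type or less RNA per cell, and these cannot be told apart.

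Among the genes with the lowest counts relative to Col-0 were 3 loci with short coding sequences, AT2G30766, AT1G47395 and AT1G47400, which hold places in the iron deficiency list. The reference gives them no name. The ends of their coding sequences are shown to compare the 3 loci. Capitals mark the 19 positions at which all 3 loci have the same base among the last 30 coding bases, read on the plus strand of the TAIR10.1 genome of RefSeq at chr1:17383240-17383269, chr1:17385941-17385970 and chr2:13108182-13108211.
AT1G47395: agTGgCTaTGAttaTGCtCCtGCtGCgTGA
AT1G47400: agTGgCTaTGAttaTGCtCCtGCtGCgTGA
AT2G30766: gaTGaCTgTGAcgtTGCaCCgGCgGCtTGA

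AT1G47395 and AT1G47400 have the same 30 bases here, and over their coding sequences 136 of 153 bases (88.9%) are identical. Their separate counts could be affected by this, but the assignment of reads between them was not tested. Their transcripts are 833 and 779 bases long, and the parts outside the coding sequences were not compared. The coding sequence of AT2G30766 is 144 bases long.

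The genes also include 2 microRNA loci, *MIR830* and *MIR850*. Capitals mark bases 2 to 8 of the mature microRNA. The sequences are from the RefSeq annotation of TAIR10.1, at chr1:4820406-4820426 and chr1:4820473-4820494 on the minus strand and chr4:7845756-7845777 on the plus strand.
miR830-3p: uAACUAUUuugagaagaagug
miR830-5p: uCUUCUCCaaauaguuuagguu
miR850: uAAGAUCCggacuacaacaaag

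The 3 seeds differ from each other. The libraries counted reads of the precursor loci and not the mature microRNAs. Both loci were named after their values were seen. *MIR830* had 7 counts in *fio1-1* and 6 in *fio1-5*, against 21 in Col-0. *MIR850* had 76 counts in *fio1-1* and 73 in *fio1-5*, against 197 in Col-0, and it overlaps the non-coding gene AT4G13495 on the same strand, which had 653, 816 and 1012 counts. The log2 ratios of *MIR850* were -1.24 in *fio1-1* and -1.40 in *fio1-5*, against -0.50 and -0.29 for AT4G13495, but the assignment of reads between overlapping genes is not stated.

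Most of the 199 genes had few reads. The median count was 8 in *fio1-1* and 9 in *fio1-5*, against 28 in Col-0. Over all kept genes the medians were 58, 61 and 63. The lowest and highest counts were 0 and 1112 in *fio1-1* and 0 and 1248 in *fio1-5*, against 11 and 2631 in Col-0. Between 20 and 49 counts over the 3 libraries were found for 105 of the genes, 50 to 99 for 44, 100 to 499 for 33 and at least 500 for 17. Low counts were thus more common among them than among kept genes, of which 3149, 2559, 6506 and 4212 fell in the same ranges. With at least 100 counts, 50 of 10718 genes (0.467%) met the selection. Summed, the genes held 0.134% of the counts in *fio1-1* and 0.138% in *fio1-5*, against 0.404% in Col-0.

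**Figure D1:**
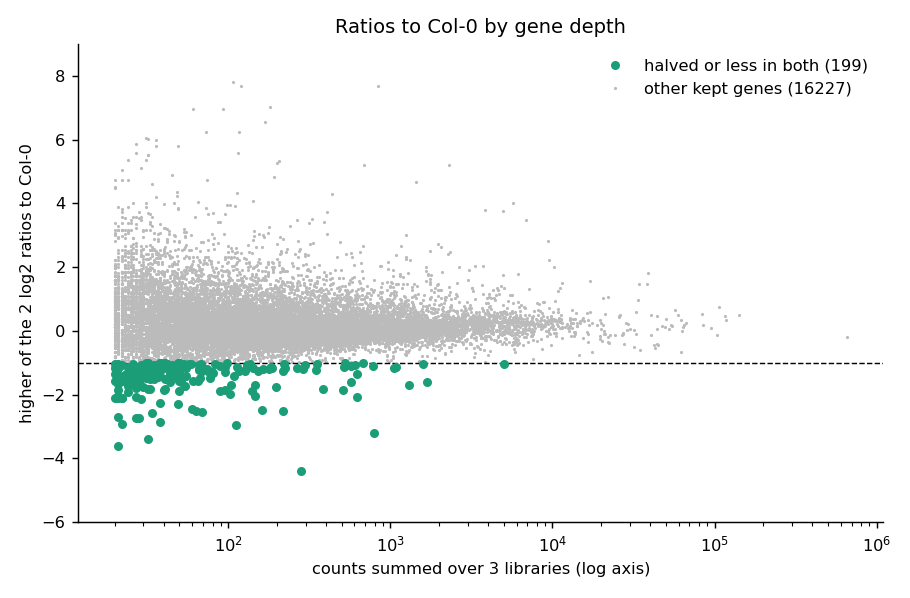
The higher of the 2 log2 ratios to Col-0 of each gene (vertical axis) against its counts summed over the 3 libraries (horizontal axis, log scale), with the 199 selected genes in green below the dashed cutoff of -1 and the other kept genes in grey. Most selected genes lie at the left, where 105 have under 50 counts and the ratios of all genes spread most.

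The median log2 ratio was -1.50 in *fio1-1* and -1.45 in *fio1-5*, beside -0.006 and 0.007 over all kept genes. Taken singly, 704 genes (4.29%) in *fio1-1* and 704 genes (4.29%) in *fio1-5* reached a ratio of -1 or lower. The opposite direction held more genes. At least doubled were 1561 genes (9.5%) in *fio1-1* and 1220 (7.43%) in *fio1-5*, and 813 (4.95%) in both. The 95% interval lay below 0 in both mutants for 160 of the 199 genes, and below -1 in both for 30. Over all kept genes these shares were 7.54% and 0.183%, the latter being the same 30 genes. The intervals use the counts and the Col-0 library that chose the genes, so they are a description and no check of the selection. All 50 genes with at least 100 counts had intervals below 0 in both mutants, and 17 had intervals below -1 in both. A ratio of -2 or lower in both mutants was found for 27 genes.

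The cutoff separates neighbours that hardly differ. Just inside it lay *NPU*, needed for the pollen wall, with 140 counts in *fio1-1* and 176 in *fio1-5*, against 360 in Col-0, *EX1*, a plastid protein of singlet oxygen signalling, with 123, 131 and 273, and the plastid coproporphyrinogen oxidase gene *hemf2* with 31, 34 and 71. Just outside lay the clock gene *TOC1* with 232 counts in *fio1-1* and 248 in *fio1-5*, against 503 in Col-0, AT1G69840 with 35, 49 and 100, and AT2G30530 with 59, 61 and 129. The log2 ratios of *EX1* were -1.02 and -1.03, and those of *TOC1* were -0.98 and -0.99.

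Iron deficiency genes held 4 of the 199 places, the most of any pathway list, from 15 kept genes of the list. Over all kept genes 1.21% were selected. The lists were chosen with earlier results of these data known, so this count is a description and was not tested. Seedlings short of iron induce a set of bHLH transcription factors and transporters, and they store surplus iron in ferritins. AT2G30766 had 11 counts in *fio1-1* and 6 in *fio1-5*, against 265 in Col-0, which is 22-fold and 43.4-fold lower, with log2 ratios of -4.40 (-5.48 to -3.60) and -5.33 (-6.90 to -4.30). It had the lowest ratio in both mutants among genes with at least 100 counts, and it overlaps genes on the other strand. AT1G47395 had 21, 10 and 131 counts in *fio1-1*, *fio1-5* and Col-0, and AT1G47400 had 8, 7 and 54. *BHLH101*, a transcription factor of the iron deficiency response, had 8 counts in *fio1-1* and 2 in *fio1-5*, against 50 in Col-0, with log2 ratios of -2.44 (-3.80 to -1.42) and -4.31 (-7.70 to -2.69). In these 4 genes the counts of the mutants were all at or below 21, and the selection fixes that Col-0 is higher.

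The list has 18 genes, of which 15 were kept. Left out for low counts were *FRO2* and 2 relatives of *BHLH101*, *BHLH38* with 2, 0 and 17 counts in *fio1-1*, *fio1-5* and Col-0 and *BHLH100* with 1, 1 and 11. Another relative, *BHLH39*, was kept and not selected, with 13, 6 and 22 counts and log2 ratios of -0.61 (-1.74 to 0.43) and -1.77 (-3.44 to -0.50). Among the 15 kept genes, 5 had a ratio of -1 or lower in *fio1-1* and 7 in *fio1-5*, where the share of all kept genes was 4.29% in each. This difference was not tested. The median log2 ratios of the list were -0.67 and -0.74. *IRT1*, the root iron transporter, had 21 counts in *fio1-1* and 5 in *fio1-5*, against 45 in Col-0, with log2 ratios of -0.95 and -3.02. *OPT3*, a phloem transporter, had 226, 232 and 394 counts, and *BTS*, a negative regulator of the response, had 104, 135 and 192. Of the 4 ferritin genes, *FER1* had 1347 counts in *fio1-1* and 1406 in *fio1-5*, against 901 in Col-0, log2 ratios of 0.71 (0.59 to 0.83) and 0.67 (0.55 to 0.79). *FER4* had 0.34 and 0.39, *FER3* had -0.30 (-0.51 to -0.08) and 0.03 (-0.17 to 0.23), and both intervals of *FER2* included 0. Root markers also differed between the libraries. The summed level of the root list was 4547 CPM (counts scaled to library size) in *fio1-1* and 3022 in *fio1-5*, against 1681 in Col-0, *IRT1* was the only 1 of its 4 kept genes that was lower in both mutants, and its part in the iron genes was not tested.

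**Figure D2:**
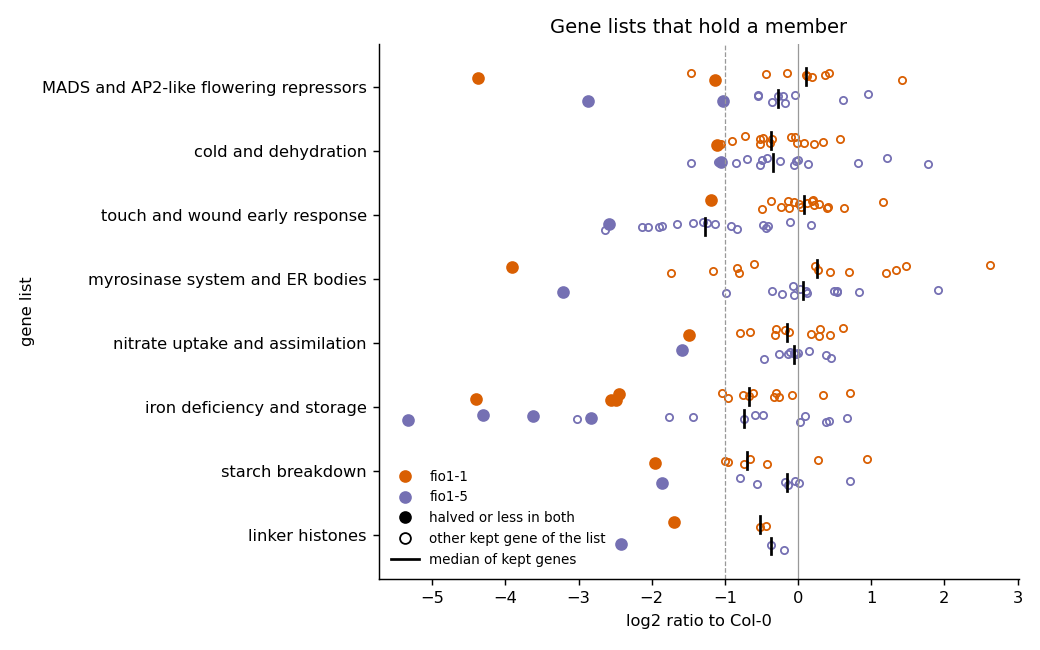
Log2 ratio to Col-0 (horizontal axis) of the kept genes of each pathway list that holds a selected gene (rows), for *fio1-1* (orange, upper) and *fio1-5* (purple, lower), with selected genes filled, other genes open, list medians as black bars and a dashed line at the cutoff of -1. The iron list has 4 filled genes in each mutant, and every other list has 1 or 2.

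*FLC*, the repressor of flowering, had 1 count in *fio1-1* and 4 in *fio1-5*, against 33 in Col-0. *FLC* overlaps AT5G01675 on the other strand, and the strand handling of the counts is not stated. Its log2 ratios were -4.38 (-10.26 to -2.33) and -2.87 (-4.98 to -1.53), and the single read in *fio1-1* gives a wide interval. *TOE3*, an AP2-like repressor, had 18 counts in *fio1-1* and 21 in *fio1-5*, against 44 in Col-0. These were the only selected genes among the 11 kept of 14 MADS and AP2-like repressors, whose medians were 0.10 in *fio1-1* and -0.28 in *fio1-5*. Over all kept genes 1.21% were selected, and the difference was not tested. *SVP*, a partner of FLC, had 199, 173 and 203 counts, and its interval included 0 in both mutants. None of the 5 kept flowering promoters and none of the 12 kept clock genes were selected.

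*NF-YB2*, a subunit of the NF-Y complex that works with CONSTANS, had 390 counts in *fio1-1* and 331 in *fio1-5*, against 879 in Col-0, with log2 ratios of -1.04 (-1.22 to -0.87) and -1.38 (-1.57 to -1.20). Further regulators of flowering, named after their values were seen, had few reads. The Polycomb methyltransferase gene *CLF* had 6, 6 and 18 counts in *fio1-1*, *fio1-5* and Col-0, the vernalization gene *VRN5* had 7, 6 and 20, the Trithorax gene *ATX1* had 12, 17 and 37, and *BFT*, a relative of *FT*, had 7, 8 and 17. The intervals of *BFT* reached past 0 in both mutants. Flower development was the annotation of 4 of the selected genes and 119 of the kept genes, so that 3.36% of the latter were selected. Over all kept genes the share was 1.21%, and the difference was not tested. Only annotations with at least 3 selected genes were listed, so a small one lies above that share by construction.

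*MBP1*, a myrosinase-binding protein of the glucosinolate defence system, had 41 counts in *fio1-1* and 72 in *fio1-5*, against 681 in Col-0. It was 15.2-fold and 9.30-fold lower, with log2 ratios of -3.91 (-4.41 to -3.47) and -3.21 (-3.59 to -2.86). It was the only selected gene among 14 kept genes of the myrosinase and ER body list, whose medians were 0.25 and 0.07. Over all kept genes 1.21% were selected, and the difference was not tested. The myrosinase genes *TGG1* and *TGG2*, which also mark myrosin cells, had 1432 and 516 counts in *fio1-1* and 2230 and 973 in *fio1-5*, against 2388 and 1264 in Col-0. *TGG1* and *TGG2* together were at 453 CPM in *fio1-1* and 692 in *fio1-5*, against 775 in Col-0, and their part in the result of *MBP1* was not tested. *TGG2* was lower in both mutants, with log2 ratios of -1.16 and -0.35. *TGG1* had -0.61 in *fio1-1* and -0.07 (-0.16 to 0.01) in *fio1-5*, an interval that includes 0. Among the other genes of the list, *BGLU18*, an ER body glucosidase, had 591 counts in *fio1-1* and 1071 in *fio1-5*, against 2152 in Col-0, and just missed the cutoff in *fio1-5* with log2 ratios of -1.73 and -0.98. *PYK10*, the main ER body glucosidase of roots, was higher in both mutants, with 1.47 and 0.83.

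*COR15B*, a chloroplast protein induced by cold, had the most reads of all selected genes, with 1112 counts in *fio1-1* and 1248 in *fio1-5*, against 2631 in Col-0. Its log2 ratios were -1.11 (-1.21 to -1.01) and -1.05 (-1.15 to -0.95). Its neighbour in the family, *COR15A*, had 421, 521 and 955 counts and missed the cutoff in *fio1-5*, with -1.05 and -0.85. Reads of these related genes could be split by the counting. *KIN2*, another cold gene, had 9580 counts in *fio1-1* and 13446 in *fio1-5*, against 19684 in Col-0, log2 ratios of -0.91 and -0.52. *RAB18*, a dehydrin, had 233, 238 and 242 counts. Of 16 kept cold and dehydration genes, 2 were at -1 or lower in *fio1-1* and 3 in *fio1-5*, where the share of all kept genes was 4.29% in each. At 1 or higher were 0 in *fio1-1* and 2 in *fio1-5*, *CBF3* (1.22) and *GolS3* (1.77). The medians of the list were -0.37 and -0.34.

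*HIS1-3*, the linker histone induced by drought, had 248 counts in *fio1-1* and 162 in *fio1-5*, against 884 in Col-0. Its log2 ratios were -1.70 (-1.91 to -1.50) and -2.42 (-2.67 to -2.18), and the count was lower in *fio1-5* than in *fio1-1* beyond counting error (-0.72, -1.02 to -0.43). The other linker histone genes, AT1G06760 and AT2G30620, had log2 ratios of -0.52 and -0.44 in *fio1-1* and -0.19 and -0.37 in *fio1-5*. The sequence upstream of *HIS1-3* holds the core of the abscisic acid response element, ACGTG, 75 bases before the start of its most counted transcript. Another annotated transcript starts within the window shown, at position 7845923, so the core shown lies inside that transcript. *HIS1-3* is an example picked from the 10 genes with the highest Col-0 counts. Others of these, such as *NF-YB2*, also hold ACGTG near the start, and *COR15B* holds none. The first of 3 matches at *HIS1-3* is shown, from TAIR10.1 at chr2:7845912-7845941 on the plus strand, with the reverse complement of the core in capitals.
HIS1-3 promoter: ttacttaaacgaCACGTgtacgctcatgat

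This match overlaps the G-box, CACGTG. Searched on both strands from 250 bases before to 50 after the start of the most counted transcript in Col-0, ACGTG was present for 65 of 190 selected genes (34.2%) and 4595 of 16285 kept genes (28.2%). The G-box was found for 8.95% and 9.05%, the cold response core CCGAC for 13.7% and 16.5%, the evening element AAAATATCT for 3.16% and 3.03%, the W-box core TTGAC for 95 and 8233 genes, and TATAAA for 45.3% and 51.2%. ACGTG was more common and TATAAA less common among the selected genes by a few percentage points, and these differences were not tested.

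Response to water deprivation was the annotation of 5 selected and 209 kept genes, so that 2.39% of the latter were selected. The 5 were *HIS1-3*, *P5CS1*, *NAC019*, *ATX1* and *CYP707A3*. For response to abscisic acid it was 3 of 293 kept genes (1.02%), and over all kept genes the share was 1.21%. These differences were not tested. Only annotations with at least 3 selected genes were listed, which by itself places small ones above the share of all kept genes. *P5CS1*, the enzyme of proline synthesis, had 108 counts in *fio1-1* and 127 in *fio1-5*, against 283 in Col-0. *NAC019*, a stress transcription factor, had 17, 14 and 45, and *HAI2*, a phosphatase of abscisic acid signalling, had 8, 8 and 34. *CYP707A3*, which breaks down abscisic acid, had 2 counts in *fio1-1* and 0 in *fio1-5*, against 20 in Col-0. Taken against a floor of 3 counts per library it was 6.55-fold lower in *fio1-5*, a value that depends on the floor. These genes were named after their values were seen, apart from *HIS1-3*.

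**Figure D3:**
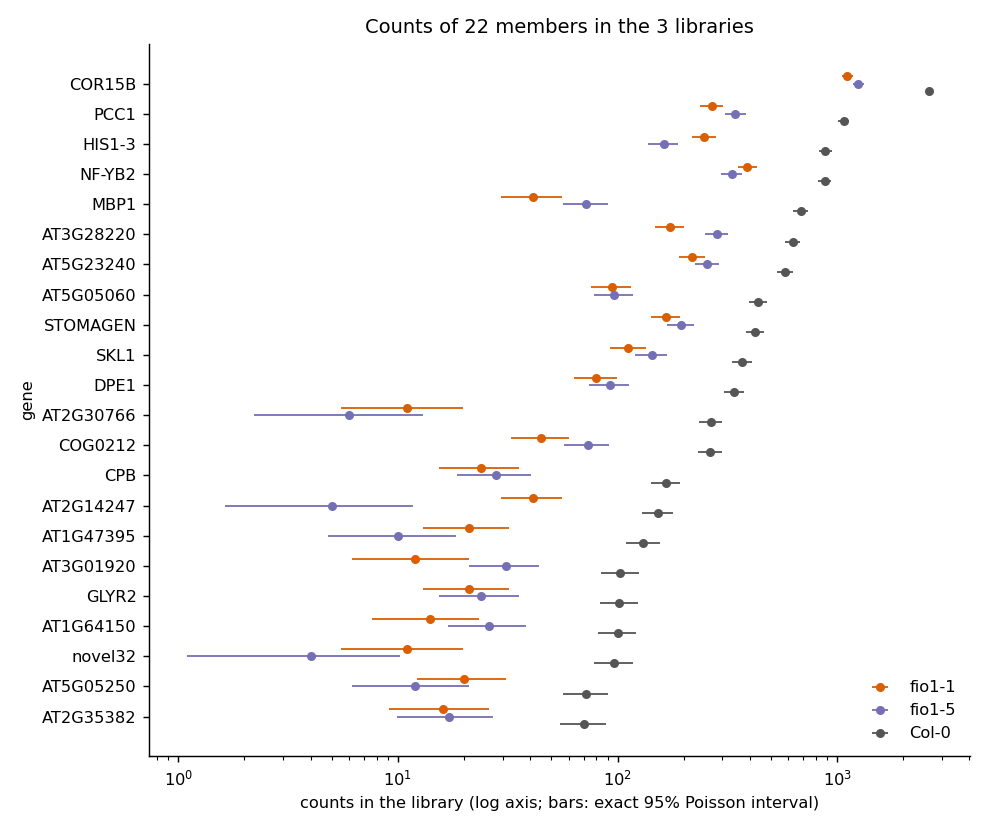
Counts in the library (horizontal log axis) of 22 selected genes (rows), the 15 lowest and the 10 with the highest Col-0 counts, in *fio1-1* (orange), *fio1-5* (purple) and Col-0 (grey), with exact Poisson 95% intervals as bars. In every row the Col-0 count lies to the right of both mutants, as the selection fixes, from 2631 for *COR15B* in the top row to 70 for AT2G35382 in the bottom row.

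A chloroplast, plastid or thylakoid term was annotated for 34 of the 199 genes (17.1%), against 13.4% of kept genes, a difference that was not tested, and 15 of the 34 had at least 100 counts. All 2206 kept genes with such a term had medians of -0.11 in *fio1-1* and 0.03 in *fio1-5*, so plastid genes as a whole were close to the median of all genes. *DPE1*, which rearranges glucans during starch breakdown, had 80 counts in *fio1-1* and 92 in *fio1-5*, against 340 in Col-0, with log2 ratios of -1.95 (-2.33 to -1.60) and -1.86 (-2.21 to -1.52). The other 7 kept starch breakdown genes were not selected, and the list had medians of -0.70 and -0.16. Over all kept genes 1.21% were selected, and the difference was not tested. *COG0212*, a gene related to folate enzymes, had 45, 73 and 264 counts in *fio1-1*, *fio1-5* and Col-0, and *GLYR2*, a glyoxylate reductase, had 21, 24 and 102. PAM71, encoded by AT1G64150 and needed in thylakoids, had 14, 26 and 100 counts. *SKL1*, a protein of chloroplast biogenesis related to shikimate kinase, had 112, 143 and 369, and the chaperone gene AT5G23240 (*DJC76*) had 218, 255 and 578. In each of these 6 genes the log2 ratio of *fio1-5* over *fio1-1* was above 0, as in 117 of the 199 selected genes. It ran from 0.08 for *GLYR2* to 0.77 for AT1G64150. The interval of *fio1-5* over *fio1-1* excluded 0 for *COG0212* alone among them (0.59, 0.04 to 1.16).

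Named after their values were seen, AT5G46420, of the RimM family of ribosome maturation factors, had 97 counts in *fio1-1* and 116 in *fio1-5*, against 359 in Col-0. *IM*, the plastid terminal oxidase, had 130, 136 and 307, and *TOC159*, a receptor of protein import into plastids, had 3, 5 and 19. *CGA1*, a GATA factor of chloroplast development, had 15 counts in *fio1-1* and 15 in *fio1-5*, against 47 in Col-0. *CGA1* was the only selected gene of the 12 kept in the nitrate list (medians of -0.15 and -0.05), against 1.21% of all kept genes. Its relative *GATA21* had 90, 140 and 171 counts. Leaf mesophyll markers held no selected gene and summed to 58637 CPM in *fio1-1* and 69862 in *fio1-5*, against 71061 in Col-0.

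Other well counted genes came from scattered processes. *CPB*, the beta subunit of the actin capping protein, had 24 counts in *fio1-1* and 28 in *fio1-5*, against 166 in Col-0, with log2 ratios of -2.64 (-3.34 to -2.04) and -2.52 (-3.18 to -1.96). *PCC1*, a gene controlled by pathogens and the clock, had 268, 344 and 1071 counts, ratios of -1.87 and -1.61. *STOMAGEN*, a secreted peptide that promotes stomata, had 166, 194 and 422. AT5G05060, with a cystatin domain, had 94 counts in *fio1-1* and 96 in *fio1-5*, against 435 in Col-0, and AT3G28220 had 173, 283 and 626. *CAF1a*, a deadenylase that shortens poly(A) tails, had 74, 30 and 186. It was the only selected gene of 18 kept touch and wound genes, against 1.21% of all kept genes. Of the 18 genes, 1 in *fio1-1* and 11 in *fio1-5* were at -1 or lower, against 4.29% of all kept genes in each. These list counts were not tested, and the medians were 0.09 and -1.27.

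Among genes with no role given, AT2G14247 had 41 counts in *fio1-1* and 5 in *fio1-5*, against 152 in Col-0. AT5G05250 had 20, 12 and 72, AT3G01920 had 12, 31 and 103, and the small nucleolar RNA locus AT2G35382 had 16, 17 and 70. The unannotated gene novel32 had 11, 4 and 96 counts. AT3G01920 overlaps genes on the other strand, as do AT2G30766, AT2G14247, *FLC*, *TOE3*, *BHLH101*, *NF-YB2*, *COR15B*, *EX1* and AT5G23240. In all, 53 of the selected genes (26.6%) overlap a gene on the other strand, against 28.0% of kept genes. Whether the counting used the strand of the reads is not stated, so the counts of such pairs are uncertain. *SKL1* overlaps AT3G26890 on the same strand, and how reads were assigned between them is not stated either. Named after its values were seen, AT2G07718 resembles mitochondrial cytochrome b. It had 54, 37 and 134 counts, and its reads could come from the mitochondrial copy.

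The pathway lists for flowering promoters, circadian clock, jasmonate, salicylic acid, aliphatic and indolic glucosinolates, phosphate, copper, light harvesting, chlorophyll, flavonoids, heat shock, sugar starvation, *EXORDIUM* genes, type-A response regulators and m6A writers held 0 of the 199 genes. With 3 to 15 kept genes in each list and 1.21% of all kept genes selected, a count of 0 is near the background and shows nothing about these pathways. The markers of root hair, root, leaf mesophyll, guard cell, phloem companion cell, myrosin cell, seed and inflorescence held 0 as well. Root hair markers summed to 60.9 CPM in *fio1-1* and 68.9 in *fio1-5*, against 24.8 in Col-0, and seed markers to 424, 263 and 136. Medians were -0.32 and 0.42 for guard cell, -0.25 and -0.28 for phloem companion cell and 2.87 and 3.09 for inflorescence markers in *fio1-1* and *fio1-5*, the last from 1 kept gene of 3. The part of these markers in the counts of the 199 genes was not tested.

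The mutants were also set against each other, a comparison whose libraries the selection also used. Of the 199 genes, 82 were lower and 117 higher in *fio1-5* than in *fio1-1*, with a median log2 ratio of 0.08. A difference of 2-fold or more was found for 16 lower genes, against 4.96% of kept genes, and for 18 higher ones, against 3.26%. The interval was below 0 for 9 of the 199 genes and above 0 for 8, whereas 13.2% and 11.4% of all kept genes had such intervals. The selected genes had median counts of 8 in *fio1-1* and 9 in *fio1-5*, against 58 and 61 over all kept genes. Few reads widen the intervals and make 2-fold gaps more common, so these counts cannot be read as a trait of the selected genes. With the log2 ratio of *fio1-5* over *fio1-1* and its interval in brackets, *CAF1a* (-1.39, -2.07 to -0.78) and AT2G14247 (-3.02, -4.84 to -1.80) were lower in *fio1-5*. *MBP1* (0.70, 0.13 to 1.3), AT3G28220 (0.60, 0.33 to 0.89) and *PCC1* (0.25, 0.02 to 0.49) were higher. For genes with at least 100 counts the median absolute gap between the mutants was 0.194 among the selected genes and 0.222 among kept genes.

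**Figure D4:**
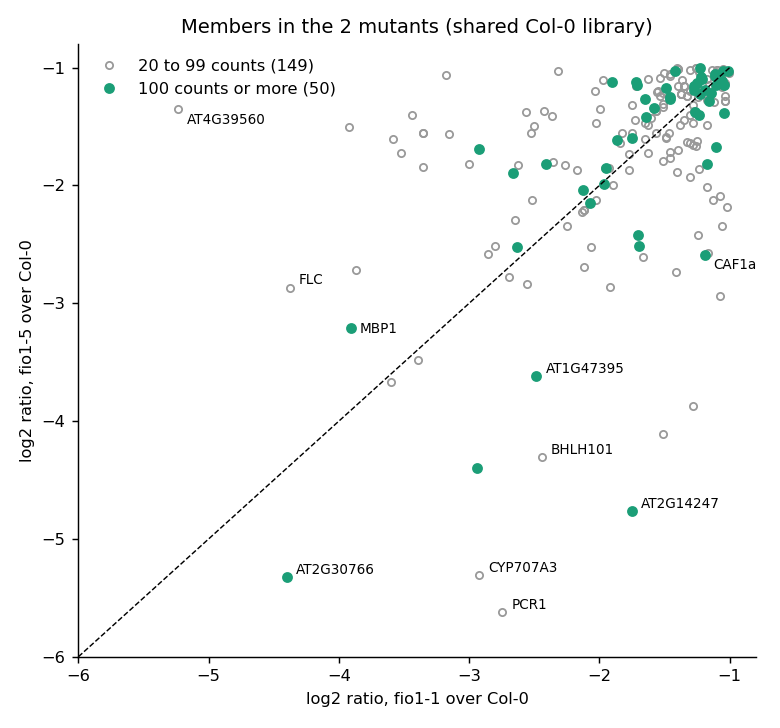
Log2 ratio to Col-0 in *fio1-5* (vertical axis) against *fio1-1* (horizontal axis) of the 199 selected genes, with the 50 genes of at least 100 counts filled, the 149 others open and the dashed line marking equal ratios. All points lie at or below -1 on both axes, as the selection fixes, and among the filled genes AT2G14247 (-1.75 and -4.77) lies far below the line.

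Zero counts were found for 3 genes. Named after their values were seen, *PCR1* had 3 counts in *fio1-1* and 0 in *fio1-5*, against 25 in Col-0, AT4G39560 had 0, 7 and 19, and *CYP707A3* is given above. Taken against the floor of 3 counts, *PCR1* was 8.19-fold lower in *fio1-5* and AT4G39560 was 5.78-fold lower in *fio1-1*. These values depend on the floor and are not lower bounds.

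Isoforms were counted separately in the deposited values. The 199 genes had 339 isoforms with a count and a median of 1 per gene, and 22 isoforms (6.49%) were unannotated, against 4.45% over kept genes. Of 187 isoforms with at least 20 counts, 175 met the cutoff in both mutants, which mostly restates the selection because a gene with 1 isoform is its isoform. Only 10 of the genes had 2 or more such isoforms. In 4 of these 10 all such isoforms met the cutoff in both mutants, and in the others at least 1 did not. Over all the genes, 3 isoforms had a ratio above 0 in either mutant. Named after their values were seen, the 2 isoforms of *SKL1* both had fewer counts, with 70, 74 and 227 for the first in *fio1-1*, *fio1-5* and Col-0 and 40, 69 and 142 for the second. At AT5G62880, also named after its values were seen, the isoforms differed, with 10, 6 and 6 counts for the first and 0, 2 and 21 for the second. Among the 43 genes with at least 20 counts in each library, the main isoform held 95% or more of the counts everywhere in 36 (83.7%), against 87.1% of 11464 kept genes. Its share moved by 20 percentage points or more in either mutant for 2 of them (4.65%), AT2G16930 and *hemf2*, against 206 kept genes (1.80%). In both mutants the same way it did so for 0 of the 43 and for 55 kept genes. AT2G16930 lies outside the naming rule and was found by this count.

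The 5′ splice sites, at which U6 RNA pairs, were compared with those of all kept genes. The selected genes have 1081 introns in their most counted transcripts, 55.0% of which have A at intron position 4, against 54.1% of 77575 introns of kept genes. Position 5 is G in 50.9% and 51.2%, and the last exon base is G in 78.4% and 78.4%. For illustration of both kinds of site, the first introns of *MBP1*, *DPE1* and *FLC* begin as follows, with 3 exon bases, 6 intron bases and intron position 4 in capitals. They lie at chr1:19352723-19352731, chr5:25928417-25928425 and chr5:3179149-3179157 of TAIR10.1, on the minus strand.
MBP1 intron 1: caggttAct
DPE1 intron 1: caggtgAat
FLC intron 1: taagtaCgc

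Short words of the kind in which m6A is found (GGACA, or AGACT, or GGACT, or GGACC) were searched on the transcript strand in the last 300 bases. At least 1 was present in 45.9% of 183 selected transcripts and 46.9% of 16124 kept ones. The median transcript length was 1667 bases against 1627, the median number of exons 5 against 4, the GC content 41.2% against 41.4%, and 18.4% against 16.6% had a single exon.

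**Figure D5:**
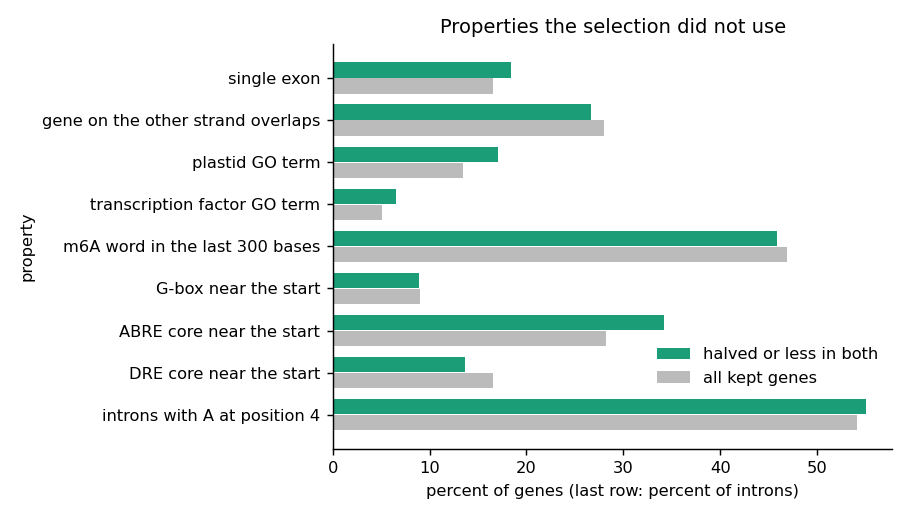
Percent of the selected genes (green, upper bar) and of all kept genes (grey, lower bar) with each of 9 properties, the last row being the percent of introns. The bars differ by a few percentage points at most, as in 34.2% against 28.2% for the core ACGTG and 17.1% against 13.4% for plastid terms.

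Chromosomes 1 to 5 held 45, 31, 32, 36 and 46 of them, between 0.994% and 1.46% of the kept genes of each. The remaining 9 were not matched to the reference annotation used and are 6.38% of the 141 kept genes without a match, against 1.21% overall. Named after their values were seen, they include the plastid genes *PSBM*, *ATPE*, *RPL32* and *YCF1.2*, which had 6, 1, 3 and 8 counts in *fio1-1* and 7, 3, 3 and 4 in *fio1-5*, against 27, 23, 16 and 19 in Col-0. Only 3 pairs were neighbours among kept genes, AT1G47395 with AT1G47400, *UMAMIT46* with *UMAMIT47*, and *UNE15* with AT4G06115. Also named after their values were seen, the amino acid transporter family genes *UMAMIT46* and *UMAMIT47* had 5 and 4 counts in *fio1-1* and 5 and 4 in *fio1-5*, against 16 and 21 in Col-0. By type, 181 of the genes code for proteins, 6 are long non-coding RNAs, 2 are microRNA loci and 1 is a small nucleolar RNA. The kept genes of these types number 15901, 163, 28 and 83.

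DNA-binding transcription factors made up 13 genes (6.53%), against 5.06% of kept genes, and nuclear proteins 37 (18.6%), against 19.1%. Splicing was the annotation of 3 selected and 102 kept genes, so that 2.94% of the kept splicing genes were selected, against 1.21% of all kept genes. This difference was not tested. Only annotations with at least 3 selected genes were listed, 57 GO terms in all, so a small term lies above 1.21% by construction. Named after their values were seen, the splicing factor gene *SR34a* had 1, 5 and 16 counts in *fio1-1*, *fio1-5* and Col-0, and *THO5*, of the THO complex for mRNA export, had 52, 52 and 118. The bromodomain gene *GTE7* had 127, 151 and 325. *MRN1*, which makes the triterpene marneral, had 66, 93 and 194 counts, and *CYP708A2*, of the thalianol pathway, had 1, 8 and 24. No GO term was given for 47 of the genes.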

How the data were processed

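Seedlings of *fio1-1*, *fio1-5* and Col-0 gave 1 column of values each, read here as the Nanopore direct RNA library of that genotype. Per the paper's methods the authors base called the reads with Guppy, filtered and corrected them, and mapped them with minimap2 2.17-r941 (SAMtools 1.10). The authors deposited an estimated count, not normalized, and a TPM value, scaled to isoform length, per isoform and library. The tool, annotation and genome build behind them are not given in the sources used here. Genes were joined to TAIR10.1 by locus identifier.

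Estimated counts were summed per gene and rounded. Genes with at least 20 counts over 3 libraries were scaled with TMM factors (edgeR 4.0.16, R 4.3.3), and log2 ratios had 0.5 counts added, scaled to library size. Intervals at 95% are exact conditional binomial (Clopper-Pearson) intervals without an addition, or exact Poisson intervals for counts, and they cover counting error only. The floor, 3 counts, is 0.698, 0.648 and 0.637 CPM in *fio1-1*, *fio1-5* and Col-0. The procedure was tested on simulated data, made from genes with at least 100 counts and with counting error only. That test does not cover selected genes with fewer counts, or differences between libraries other than counting error. Further steps used scipy 1.17.1, pandas 2.3.3 and numpy 2.4.6 under Python 3.11.15, and matplotlib 3.10.9 for plots.

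Named were the 15 selected genes with the lowest ratios among those with at least 100 counts, the 10 with the highest Col-0 counts, those on the pathway lists, 3 genes on each side of the cutoff, and *FIO1*. Other genes are said to be chosen after their values were seen. Genes and lists were chosen with earlier results of these data known. Alternatives were total-count scaling, DESeq2 1.42.0 size factors, 2 counts added, no count minimum, a minimum of 100 counts, TPM, unrounded counts, libraries thinned to the smallest total, a 4-fold cutoff and isoforms. The m6A site calls were not analysed here, nor were the Illumina libraries if the columns are the Nanopore ones, as they were read.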

Additional observations from a re-analysis of the deposited data

How the results depend on the processing

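The number of genes at -1 or lower in both mutants was 199. It was within 1.5 times of that, between 162 and 221, with TPM, size factors of DESeq2, 2 counts added, total-count scaling, unrounded counts and thinned libraries. All 199 genes were among the 221 of total-count scaling, but only 142 were among the 188 of TPM and 174 among the 203 of thinned libraries. Without a count minimum 1119 genes passed, with a minimum of 100 counts and scaling factors computed anew from those genes 49 (50 with the factors of all kept genes), at 4-fold 27, and 316 isoforms passed in place of genes. The median log2 ratio in *fio1-1* was -1.37 with 2 counts added and -1.28 with TPM, and in *fio1-5* it was -1.33 with 2 counts added, -1.25 with TPM and -1.30 with at least 100 counts. The cause of the shift with TPM was not tested, and TPM also moved the medians of all genes, to -0.14 and -0.15. For the 31 named selected genes, all 248 ratios under the scaling, addition and TPM alternatives were below 0 and 245 were at -1 or lower. No paired analysis was possible because each genotype has 1 library. Depth limits the result, since 105 of the 199 genes had under 50 counts over the 3 libraries.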
